A study of Mus musculus with 4 samples.

Results

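The 41 genes described here are a list of pan-macrophage and myeloid genes, measured in whole subcutaneous adipose tissue of mice. The list was given by gene symbol and holds surface markers, transcription factors, integrins, Fc receptors, lectins, chemokine receptors, phagosome genes and general leukocyte genes. Of the 41 listed genes, 40 had a level among the 19938 named genes of the arrays, each through 1 probe set that names only that gene. Slc11a1, the metal transporter of the phagosome membrane, had no such probe set and was not analysed here.

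The study deleted Napepld, the gene of an enzyme that makes N-acylethanolamines such as anandamide, in the adipose tissue of male mice and crossed the deletion with diet. Each of the 4 groups was 1 Affymetrix MoGene 1.0 ST array. The cKO-HFD array held knockout mice on a high-fat diet, the WT-HFD array wild-type mice on the same diet, the cKO-CT array knockout mice on a control diet and the WT-CT array wild-type mice on the control diet, all at the age of 16 weeks. The labels state that RNA of 4 to 5 mice a group, picked for RNA quality, was combined before labelling, so the spread between mice is not seen. In the knockouts Cre was driven by the Fabp4 (aP2) promoter. The wild types were littermates that carried the loxP-flanked Napepld allele without Cre. Fabp4 is known to be expressed by macrophages as well as by adipocytes. The paper reported no difference in Napepld expression between peritoneal macrophages of knockout and wild-type mice. It found the loss in the adipocyte fraction of the fat and not in the stromal vascular fraction. How far Cre acted in macrophages was not measured on these arrays.

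Macrophages are the main immune cells of adipose tissue, where they clear dead adipocytes and lipid. Their identity is set by transcription factors such as PU.1, the product of Spi1, and maintained by growth factor signals through the receptor encoded by Csf1r. On a high-fat diet, monocytes that carry the chemokine receptor encoded by Ccr2 are known to enter the tissue, and macrophages that express Itgax gather around dying adipocytes. In bulk tissue, fewer cells of a type and less RNA per cell cannot be told apart, and the same holds for more cells and more RNA.

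Levels are log2 values normalized by RMA (robust multi-array average), and a difference of 2 levels is a log2 ratio. A gene was called higher or lower when it differed by at least 1.5-fold, which is 0.58 on the log2 scale. With 1 array per group there is no replicate error, no test and no p-value. Beside each 1.5-fold count over all measured members on the deposited levels, the share of all named genes called in that comparison is given. Counts within a role or after a filter on low levels stand without it. As a mark of background, the 95th percentile of 1027 olfactory receptor (Olfr) genes, which adipose tissue is not known to use, lay at 5.50 on cKO-HFD, 5.42 on WT-HFD, 5.28 on cKO-CT and 5.39 on WT-CT. Arrays correlated over genes with r between 0.980 and 0.989. Napepld, the targeted gene, read 7.94 on cKO-HFD and 8.01 on WT-HFD, and 7.78 on cKO-CT and 8.31 on WT-CT. On the control diet it was 0.53 below its wild type on the log2 scale, where 455 of 19938 genes had a lower ratio. On the high-fat diet it was only 0.06 below, where 6495 genes had a lower ratio, so that array pair did not show a clear loss. Neither ratio was past 1.5-fold. The paper reported no detectable NAPE-PLD protein in white fat of knockouts, and reduced Napepld mRNA with some residual expression on both diets. All 8 genes of an adipocyte list lay above background on every array.

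Of the 40 measured members, 30 lay above background on all 4 arrays. Itgax and Fcgr1 did so on 3 arrays, Clec7a, Ccr2 and Ncf4 on 1, and Aif1, Fcgr4, Clec4d, Clec4e and Ccr1 on none. The median level over the members was 6.57 on cKO-HFD, 6.78 on WT-HFD, 6.61 on cKO-CT and 6.32 on WT-CT. WT-CT was the low array for most of the list. On it 30 of 40 members (75%) had their lowest level of the 4 arrays, against 28.3% of all genes. WT-HFD was the high array, with the highest level of 27 members (67.5%), against 19.8% of all genes. Of the other members, 8 peaked on cKO-CT (Mertk, Spi1, Itgam, Fcgr4, Clec7a, Ccr1, Ccr2 and Coro1a), 4 on cKO-HFD (Irf5, Clec4d, Cx3cr1 and Plek) and 1, Aif1, on WT-CT.

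**Figure D1:**
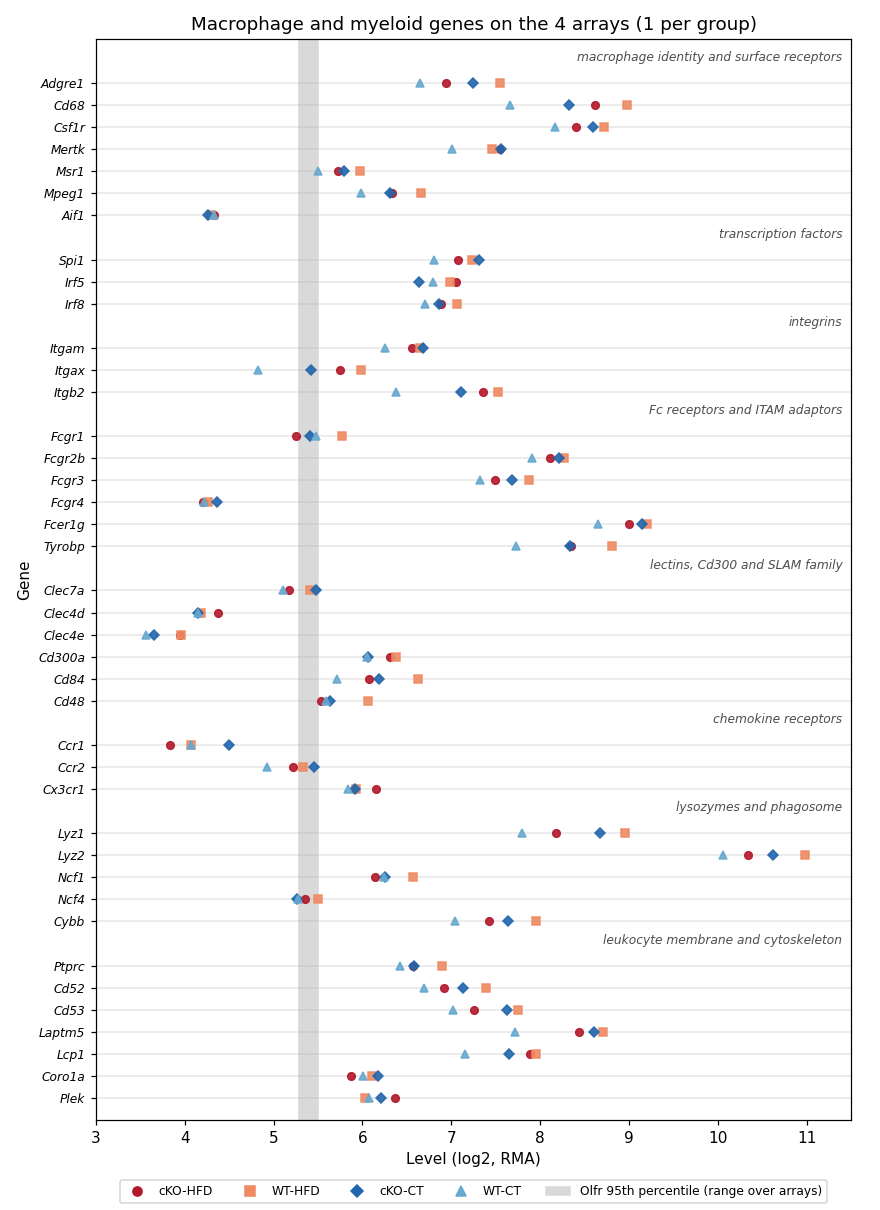
Level of each of the 40 measured members (log2, RMA) on the 4 arrays, grouped by role, with 1 point per array (red circle cKO-HFD, orange square WT-HFD, dark blue diamond cKO-CT, light blue triangle WT-CT) and no error bars because each group is 1 array. The grey band is the range of the Olfr 95th percentile over the arrays (5.28 to 5.50), and in 30 of 40 members the WT-CT triangle is the lowest point.

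The diet comparison in wild types moved the most members. In WT-HFD over WT-CT, 14 of 40 members (35%) were called higher, against 3.16% of all genes, and 0 were called lower, against 2.67%. The median log2 ratio of the members was 0.46, with 37 members above 0. In knockouts the diet comparison called almost none. In cKO-HFD over cKO-CT, 0 members were called higher, against 1.82% of all genes, and 1 was called lower, against 2.17%. That member was Ccr1, which lay below background on all 4 arrays. The median was -0.11, with 15 members above 0 and 25 below.

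Between genotypes, the members called were higher in the knockout on the control diet and lower in it on the high-fat diet. In cKO-CT over WT-CT, 9 members (22.5%) were called higher, against 1.64% of all genes, and 0 were called lower, against 1.52%. The median log2 ratio was 0.40, with 36 of 40 members above 0. With cyclic loess in place of the deposited scaling 5 members were called higher here, and Adgre1, Cd68, Tyrobp, Cybb and Cd53 lay just below the threshold. In cKO-HFD over WT-HFD, 3 members (7.5%) were called lower, against 2.11% of all genes, and 0 were called higher, against 1.04%. The members called lower were Adgre1, just past the threshold at -0.60, and the near-identical copies Lyz1 and Lyz2. Probes of one lysozyme can read the other, so these calls may not be separate readings. There the median was -0.24, with 34 of 40 members below 0. The medians over all genes were -0.005 and 0.03. Finally, in cKO-HFD over WT-CT, which differ in both genotype and diet, 6 members (15%) were called higher, against 3.36% of all genes, and 0 were called lower, against 3.41%, with a median of 0.26. The 3 comparisons with WT-CT share that array, so a low reading on it enters all of them.

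The lysozymes, enzymes that cut the bacterial cell wall, include Lyz1, the member whose genotype ratios on the 2 diets lay farthest apart. Lyz2 is the lysozyme of macrophages and other myeloid cells, and Lyz1 is known mainly from Paneth cells of the gut. They are neighbouring and near-identical copies on chromosome 10, so probes of one can read the other and their separate levels are uncertain. The 150 bases before the start sites of both genes are shown because the pair had the same order of arrays. Other members, such as Adgre1, Cybb and Cd53, had that order too, so it does not single out the pair. They are from RefSeq on GRCm38.p6, minus strand, chr10:117292869-117293018 for Lyz1 and chr10:117282273-117282422 for Lyz2, and capitals mark the 21 positions at which they differ when compared without gaps.
Lyz1: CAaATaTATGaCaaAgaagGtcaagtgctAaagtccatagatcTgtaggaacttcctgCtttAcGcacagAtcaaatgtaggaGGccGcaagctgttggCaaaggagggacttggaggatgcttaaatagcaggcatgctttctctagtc
Lyz2: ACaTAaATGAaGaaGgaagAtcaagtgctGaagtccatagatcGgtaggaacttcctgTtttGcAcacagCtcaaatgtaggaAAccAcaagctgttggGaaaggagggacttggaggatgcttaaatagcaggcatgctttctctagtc
The stretches are identical at 129 of 150 positions (86%), and at every one of the 50 bases next to the start site.

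Lyz1 read 8.18 on cKO-HFD, 8.95 on WT-HFD, 8.68 on cKO-CT and 7.80 on WT-CT. The order of the arrays was WT-HFD, cKO-CT, cKO-HFD, WT-CT, and the same order held for Lyz2, at 10.34, 10.97, 10.63 and 10.06 on cKO-HFD, WT-HFD, cKO-CT and WT-CT. Lyz1 was called lower in cKO-HFD than in WT-HFD, with a log2 ratio of -0.78, and 247 of 19938 genes had a lower ratio. It was called higher in cKO-CT than in WT-CT, at 0.88 or 1.84-fold, where 38 genes had a higher ratio. In WT-HFD over WT-CT it was called higher at 1.15 (2.23-fold). Lyz2 was called lower in cKO-HFD than in WT-HFD (-0.63) and higher in WT-HFD than in WT-CT (0.91), while its 0.56 in cKO-CT over WT-CT fell just short of the threshold.

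The other phagosome genes on the list make up part of the phagocyte NADPH oxidase, which makes superoxide. Cybb, its catalytic membrane subunit, read 7.43 on cKO-HFD, 7.95 on WT-HFD, 7.64 on cKO-CT and 7.04 on WT-CT. It was called higher in cKO-CT than in WT-CT (0.59, 1.51-fold, close to the threshold) and in WT-HFD than in WT-CT (0.91), and its -0.52 in cKO-HFD over WT-HFD was not called. The cytosolic subunits Ncf1 and Ncf4 passed the threshold in no comparison. Their ratios in cKO-CT over WT-CT were 0.01 and -0.01, and Ncf4 was above background on WT-HFD alone.

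Among the identity and surface receptor genes, Adgre1, which encodes the surface antigen most used to mark mouse macrophages, read 6.94 on cKO-HFD, 7.54 on WT-HFD, 7.25 on cKO-CT and 6.65 on WT-CT. The knockout was below its wild type on the high-fat diet and above it on the control diet, by almost the same size. Adgre1 was called lower in cKO-HFD than in WT-HFD (-0.60, 1.52-fold) and higher in cKO-CT than in WT-CT (0.60, 1.52-fold), both just past the threshold, and called higher in WT-HFD than in WT-CT (0.90). The paper, by qPCR and by staining for the Adgre1 protein, described its markers as similar between cKO-HFD and WT-HFD mice. Cd68, a glycoprotein of macrophage lysosomes and late endosomes, read 8.61 on cKO-HFD, 8.98 on WT-HFD, 8.32 on cKO-CT and 7.66 on WT-CT. WT-CT stood lowest, and all 3 other arrays were called higher than it. The ratio was 1.32 (2.50-fold) in WT-HFD over WT-CT, 0.96 (1.94-fold) in cKO-HFD over WT-CT and 0.67 (1.59-fold) in cKO-CT over WT-CT, and cKO-HFD over WT-HFD was -0.36, not called. Mpeg1, which encodes the pore-forming protein perforin-2, read 6.33 on cKO-HFD, 6.66 on WT-HFD, 6.31 on cKO-CT and 5.99 on WT-CT. It was called higher only in WT-HFD over WT-CT, at 0.67.

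The other 4 genes of this group were called in no comparison. Csf1r, the receptor of the growth factors CSF1 and IL-34, had ratios of 0.43 in cKO-CT over WT-CT and -0.32 in cKO-HFD over WT-HFD, and Msr1, a scavenger receptor for modified lipoproteins, had 0.30 and -0.24. Mertk, the receptor kinase through which macrophages take up apoptotic cells, differed from these in that it read above its wild type on both diets, at 0.55 on the control diet and 0.10 on the high-fat diet. Aif1, an actin-binding protein used as a microglia and macrophage marker, was below background on every array.

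Of the transcription factors, none was called in any comparison. Spi1 encodes PU.1, without which macrophages do not form, and read 7.07 on cKO-HFD, 7.24 on WT-HFD, 7.31 on cKO-CT and 6.81 on WT-CT. Its largest ratio was 0.50, in cKO-CT over WT-CT. Irf8, which drives monocyte development, read 6.88 on cKO-HFD, 7.07 on WT-HFD, 6.86 on cKO-CT and 6.70 on WT-CT. Irf5, linked to inflammatory macrophage programmes, read 7.05 on cKO-HFD, 6.99 on WT-HFD, 6.64 on cKO-CT and 6.79 on WT-CT. It went against the list, with cKO-CT as its lowest array and cKO-HFD as its highest, and its largest ratio was 0.41 in cKO-HFD over cKO-CT.

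The leukocyte integrins pair an alpha chain, Itgam (CD11b) or Itgax (CD11c), with the beta chain Itgb2 (CD18). Itgb2 read 7.36 on cKO-HFD, 7.52 on WT-HFD, 7.11 on cKO-CT and 6.38 on WT-CT, and Itgax read 5.75, 5.99, 5.43 and 4.82 on the same arrays in that order, the last below background. For both, WT-CT stood lowest and cKO-CT next. Itgb2 was called higher in WT-HFD over WT-CT (1.14, 2.21-fold), cKO-HFD over WT-CT (0.98, 1.97-fold) and cKO-CT over WT-CT (0.73, 1.66-fold), and in that last comparison 98 of 19938 genes had a higher ratio. Itgax was called higher in the same 3 comparisons, at 1.16, 0.93 and 0.60, with its WT-CT level below background in each. Itgam read 6.56 on cKO-HFD, 6.64 on WT-HFD, 6.68 on cKO-CT and 6.26 on WT-CT and was called in no comparison, with a largest ratio of 0.43. In cKO-HFD over WT-HFD no integrin was called, with ratios of -0.08 for Itgam, -0.16 for Itgb2 and -0.23 for Itgax.

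Among the Fc receptors and their signalling adaptors, only the adaptor Tyrobp (DAP12), which carries the signals of TREM2 and related receptors, was called. Tyrobp read 8.34 on cKO-HFD, 8.81 on WT-HFD, 8.33 on cKO-CT and 7.72 on WT-CT. The knockouts were level with each other, between a high WT-HFD and a low WT-CT. The ratio was 1.09 (2.12-fold) in WT-HFD over WT-CT, 0.62 in cKO-HFD over WT-CT and 0.61 in cKO-CT over WT-CT, all called higher, and -0.47 in cKO-HFD over WT-HFD, not called. With cyclic loess both calls of the knockouts over WT-CT were lost, at 0.58 for cKO-HFD and 0.52 for cKO-CT. Fcer1g, the common gamma chain of activating Fc receptors, read 9.0 on cKO-HFD, 9.20 on WT-HFD, 9.14 on cKO-CT and 8.65 on WT-CT, with WT-CT again lowest. Fcgr3, an activating receptor for IgG, read 7.49 on cKO-HFD, 7.87 on WT-HFD, 7.68 on cKO-CT and 7.33 on WT-CT. No ratio of either exceeded 0.55 in size. Fcgr1, the high-affinity IgG receptor, had -0.52 in cKO-HFD over WT-HFD and -0.07 in cKO-CT over WT-CT. Fcgr2b, the inhibitory receptor, had -0.15 and 0.30, and Fcgr4 was below background throughout. Fcgr2b, Fcgr3 and Fcgr4 are similar in sequence, so their separate levels are uncertain.

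Of the lectins, Cd300 and SLAM family genes, only Cd84 was called, and only in WT-HFD over WT-CT (0.91, 1.88-fold). Cd84 read 6.08 on cKO-HFD, 6.62 on WT-HFD, 6.19 on cKO-CT and 5.72 on WT-CT. Cd48, its relative on most leukocytes, read 5.53 on cKO-HFD, 6.06 on WT-HFD, 5.64 on cKO-CT and 5.58 on WT-CT. WT-HFD stood apart from 3 near-equal arrays for Cd48, whereas Cd84 also had a low WT-CT. In cKO-HFD over WT-HFD the ratios of the pair were alike, -0.54 for Cd84 and -0.53 for Cd48. Clec7a (dectin-1), which binds fungal beta-glucan, read 5.17 on cKO-HFD, 5.41 on WT-HFD, 5.48 on cKO-CT and 5.11 on WT-CT, above background on cKO-CT alone. The inhibitory receptor Cd300a had ratios between -0.06 and 0.33, and the lectins Clec4d and Clec4e were below background on every array.

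No chemokine receptor that lay above background was called. Ccr2, which brings monocytes out of the bone marrow, read 5.21 on cKO-HFD, 5.33 on WT-HFD, 5.45 on cKO-CT and 4.93 on WT-CT, above background on cKO-CT alone, with a ratio of 0.52 in cKO-CT over WT-CT. Cx3cr1, the receptor for fractalkine on patrolling monocytes and many tissue macrophages, read 6.15 on cKO-HFD, 5.93 on WT-HFD, 5.92 on cKO-CT and 5.83 on WT-CT. Its highest array was cKO-HFD, and none of its ratios exceeded 0.31.

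The last group holds genes of the leukocyte membrane and cytoskeleton that lymphocytes express too. Laptm5, a lysosomal membrane protein of blood cells, read 8.43 on cKO-HFD, 8.70 on WT-HFD, 8.61 on cKO-CT and 7.72 on WT-CT. WT-CT stood apart from 3 arrays that lay close together. The ratio was 0.89 (1.85-fold) in cKO-CT over WT-CT, where 35 of 19938 genes had a higher ratio, 0.98 in WT-HFD over WT-CT and 0.71 in cKO-HFD over WT-CT, all called higher. Cd53, a tetraspanin of leukocytes, read 7.26 on cKO-HFD, 7.75 on WT-HFD, 7.63 on cKO-CT and 7.02 on WT-CT. The array order was that of the lysozymes, and Cd53 was called higher in cKO-CT over WT-CT (0.61) and WT-HFD over WT-CT (0.73). Lcp1 (L-plastin), which bundles actin, read 7.89 on cKO-HFD, 7.95 on WT-HFD, 7.65 on cKO-CT and 7.16 on WT-CT. Both HFD arrays were higher than both CT arrays for Lcp1, and it was called higher in WT-HFD over WT-CT (0.80) and cKO-HFD over WT-CT (0.73). The small surface glycoprotein Cd52 was called higher in WT-HFD over WT-CT alone (0.69). Ptprc (CD45), the phosphatase carried by all leukocytes, had 0.47 there and 0.15 in cKO-CT over WT-CT. The actin regulator Coro1a and the kinase substrate Plek stayed between -0.30 and 0.33 in every comparison. Plek was the only member with its lowest level on WT-HFD.

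Setting the knockout against its wild type on each diet uses 4 separate arrays, and 32 of 40 members (80%) read above WT-CT in cKO-CT and below WT-HFD in cKO-HFD, against 22.9% of all genes. Mertk, Clec4d, Cx3cr1 and Plek read above the wild type on both diets. Fcgr1 and Ncf4 read below it on both, and Aif1 and Irf5 had the reverse pattern, though the ratios of Aif1 on both diets and of Ncf4 on the control diet were close to 0 and changed sign with cyclic loess. Among the 30 members above background on all 4 arrays, 26 had the pattern of the majority, against 28.5% of the 10895 genes above background on all 4. The difference of the 2 genotype ratios, HFD minus CT, had a median of -0.60 over the members, against 0.02 over all genes. It was below 0 in 35 of 40 members and past 1.5-fold below 0 in 20, against 5.12% of all genes, and ran from -1.65 for Lyz1 to 0.22 for Irf5. With 1 array per group this difference was not tested.

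**Figure D2:**
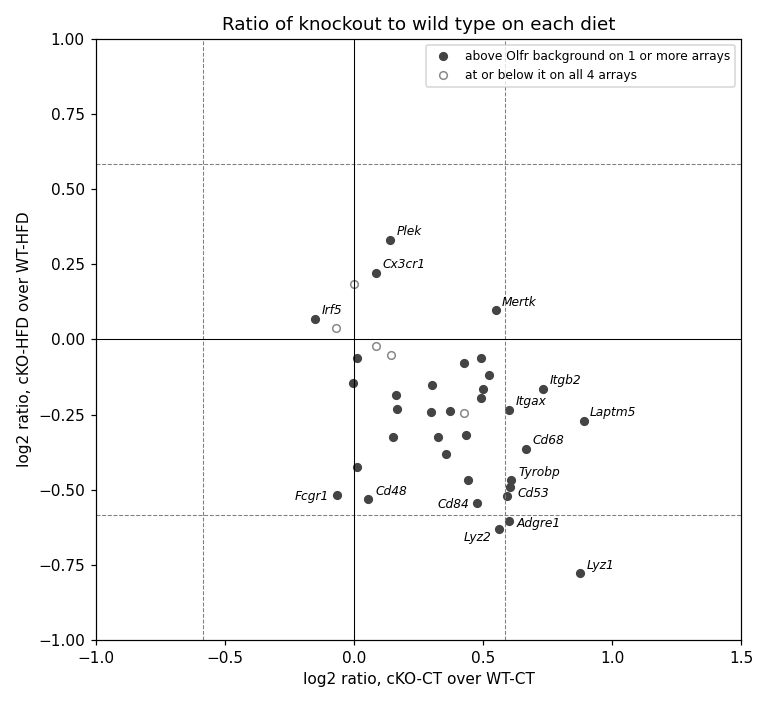
Log2 ratio of knockout to wild type on the control diet (cKO-CT over WT-CT, horizontal axis) and on the high-fat diet (cKO-HFD over WT-HFD, vertical axis), 1 point per measured member, open where the member was below the Olfr background on every array. Dashed lines mark 1.5-fold, and 32 of 40 points lie right of 0 and below 0, with Lyz1 at 0.88 and -0.78.

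The same 4 arrays read by diet gave 24 of 40 members (60%) above the control diet in wild types and below it in knockouts, against 22.0% of all genes. A further 13 (32.5%) were above the control diet in both genotypes, against 27.1% of all genes. These included Cd68, Itgax, Itgb2 and Lcp1, with ratios in cKO-HFD over cKO-CT of 0.29, 0.32, 0.25 and 0.24. Of the 14 members called higher on the high-fat diet in wild types, 0 were called in knockouts, where their ratios ran between -0.50 for Lyz1 and 0.32 for Itgax. Of all 631 genes called higher in wild types, 53 (8.4%) were called higher and 94 (14.9%) lower in knockouts, so most were not called there either.

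**Figure D3:**
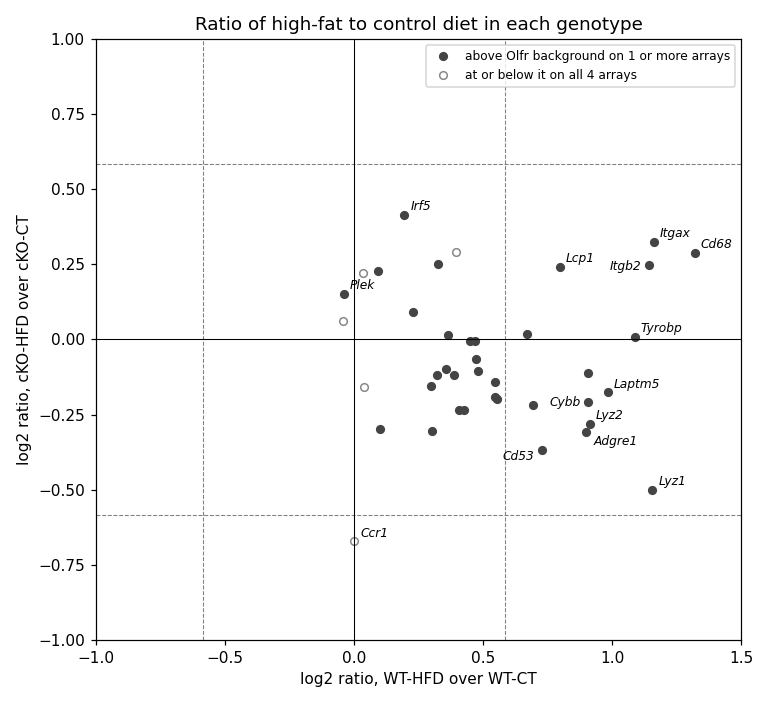
Log2 ratio of high-fat to control diet in wild types (WT-HFD over WT-CT, horizontal axis) and in knockouts (cKO-HFD over cKO-CT, vertical axis), 1 point per measured member, open where the member was below the Olfr background on every array. Dashed lines mark 1.5-fold, and 14 points lie right of the 1.5-fold line while no point lies above the upper horizontal line and only Ccr1 lies below the lower one.

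Markers of other cells were read on the same arrays. Of 7 measured T cell genes only Cd3e lay above background, and only Cd79b of 7 B cell genes and Prf1 of 6 NK cell genes. Their medians in cKO-CT over WT-CT were -0.18, -0.16 and 0.01, beside 0.40 for the 40 macrophage and myeloid genes. Only the B cell gene Cd79a, below background on every array, was called there, and it was lower (-0.75). With most of these genes at background, such medians cannot show whether those cells changed. The summed linear level of the T cell list ran between 228 and 264 over the arrays. In cKO-HFD over WT-HFD, where the median of the macrophage and myeloid genes was -0.24, the medians were 0.24 for T cell, 0.15 for B cell and -0.18 for NK cell genes, with none called. Neutrophil genes lay below background except Elane. Their median was 0.22 in cKO-HFD over WT-HFD, where 3 of 10 (Ly6g, S100a8 and S100a9, all below background) were called higher. In cKO-CT over WT-CT it was -0.11, with 1, Mpo, also below background, called lower (-0.59). Dendritic cell genes had a median of 0.08 in cKO-CT over WT-CT, with 1 of 7, Cd209a, called higher (0.72). Of 6 mast cell genes, Cpa3, Kit, Tpsb2 and Mcpt4 lay above background on every array. Cpa3 had the signs of most members, 0.40 in cKO-CT over WT-CT and -0.44 in cKO-HFD over WT-HFD. It was called lower in cKO-HFD over cKO-CT (-0.70). Kit was above its wild type on both diets (0.49 and 0.44), and Tpsb2 and Mcpt4 lay within 0.03 of theirs. The adipocyte list had medians between -0.04 and 0.10 over the 5 comparisons and no member called.

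Markers of skeletal muscle and of pancreatic acinar cells, neither of which belongs to adipose tissue, differed strongly between the arrays. The summed linear level of 12 skeletal muscle genes was 2661 on cKO-HFD, 40442 on WT-HFD, 13624 on cKO-CT and 12634 on WT-CT, and all 12 were called lower in cKO-HFD over WT-HFD (median -4.06). In that comparison the macrophage and myeloid list had its median of -0.24, and WT-HFD was the highest array of both lists. In cKO-CT over WT-CT the muscle median was -0.08. The summed linear level of 10 measured pancreatic acinar genes was 449 on cKO-HFD, 470 on WT-HFD, 405 on cKO-CT and 1609 on WT-CT, so that WT-CT, the array on which most members were lowest, was the highest for these genes. Of the 10, 8 were called lower in cKO-CT over WT-CT, and 8 in WT-HFD over WT-CT, which shares the WT-CT array. The part of either tissue in the members' ratios was not tested.

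**Figure D4:**
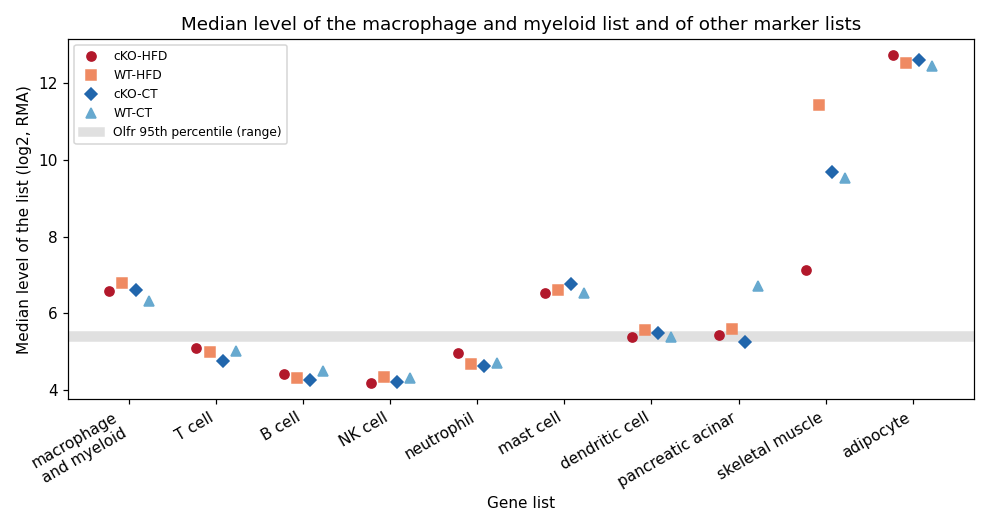
Median level (log2, RMA) of the macrophage and myeloid list and of 9 marker lists of other cells or tissues on the 4 arrays, 1 point per array, with the range of the Olfr 95th percentile as a grey band. The macrophage and myeloid medians run between 6.32 on WT-CT and 6.78 on WT-HFD, and the skeletal muscle medians between 7.12 on cKO-HFD and 11.43 on WT-HFD.

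Among 14 ligands of the receptors on the list, 4 (Ccl2, Ccl6, Ccl9 and Pros1) were called higher in WT-HFD over WT-CT, 1 in cKO-CT over WT-CT, and 1 was called lower in cKO-HFD over WT-HFD. Ccl2, the ligand of the receptor encoded by Ccr2, read 6.83 on cKO-HFD, 6.33 on WT-HFD, 5.94 on cKO-CT and 5.63 on WT-CT. Its highest array was thus cKO-HFD, and it was called higher in cKO-HFD over WT-CT (1.19), in cKO-HFD over cKO-CT (0.89) and in WT-HFD over WT-CT (0.70), and not in cKO-HFD over WT-HFD (0.50) or cKO-CT over WT-CT (0.31). Ccl3, a ligand of the receptor encoded by Ccr1, was also called higher in cKO-HFD over cKO-CT (0.59). The chemokine Ccl6 read 9.15 on cKO-HFD, 9.64 on WT-HFD, 9.25 on cKO-CT and 8.83 on WT-CT, with 0.81 in WT-HFD over WT-CT. Pros1, which encodes protein S, read 7.38 on cKO-HFD, 7.78 on WT-HFD, 7.40 on cKO-CT and 7.0 on WT-CT, with 0.78. WT-HFD was thus the high array and WT-CT the low array of both, as for most members. Gas6, like protein S a ligand of the Mertk receptor that bridges it to dying cells, read 7.85 on cKO-HFD, 8.25 on WT-HFD, 8.61 on cKO-CT and 7.99 on WT-CT. It was the ligand called higher in cKO-CT over WT-CT (0.62), and it was called lower in cKO-HFD over cKO-CT (-0.76). The monocyte chemoattractant Ccl8, at 6.63 on cKO-HFD and 7.24 on WT-HFD, was the ligand called lower between these arrays (-0.61), and it was called lower in cKO-HFD over WT-CT (-0.66). Csf1 and Il34, ligands of the receptor encoded by Csf1r, were called in no comparison. Of 19 measured signalling and oxidase partners, 0 were called in either genotype comparison within a diet. In WT-HFD over WT-CT, 2 were called higher, the kinase Syk (0.68), which acts below the ITAM adaptors, and Cyba (0.62), the membrane partner of the Cybb protein in the oxidase. In cKO-HFD over WT-CT, Cyba (0.82) and Lcp2 (0.62), a scaffold protein of the same signalling path, were called higher.

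Promoter letters were read because PU.1 binds sites with a GAGGAA core near many myeloid genes. RefSeq windows on GRCm38.p6, 250 bases before to 50 after the start site, were held for 33 of 41 members. GAGGAA, or TTCCTC on the other strand, stood in the window of 18 of 33 members and of 31.3% of 27025 genes. The longer GAGGAAGT, or ACTTCCTC, which contains the shorter one, stood in those of Fcgr4 and Cd53 and of 3.69% of genes. Of the 9 members called higher in cKO-CT over WT-CT, 6 had a window, and those of Cd68, Cybb, Cd53 and Laptm5 held GAGGAA. The 150 bases before the start site are shown for Laptm5 and Cd53, whose matches lie at nearly the same distance from the start, with the match in capitals, at chr4:130913166-130913315 on the plus strand for Laptm5 and chr3:106790150-106790299 on the minus strand for Cd53.
Laptm5: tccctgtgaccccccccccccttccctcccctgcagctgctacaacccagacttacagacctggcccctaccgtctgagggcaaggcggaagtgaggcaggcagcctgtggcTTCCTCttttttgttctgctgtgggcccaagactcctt
Cd53: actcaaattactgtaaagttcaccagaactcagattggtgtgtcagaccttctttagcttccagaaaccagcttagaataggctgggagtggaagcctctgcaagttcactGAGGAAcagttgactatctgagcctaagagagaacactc
The match shown ran from -38 to -33 in Laptm5 and from -39 to -34 in Cd53, counted from the start site. A second match in Cd53, from 8 to 13 and outside the stretch shown, is the one within GAGGAAGT. Cd300a also had a match from -39 to -34, so the distance is not particular to this pair. A match of letters is a description and not a measured binding site.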

How the data were processed

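Subcutaneous adipose tissue of 4 groups was measured on 1 array each. The authors deposited 1 log2 level for each probe set and array. They made these levels by RMA, in which probe signals are background-corrected, given 1 common distribution on all arrays and combined into probe sets. The methods name the RMA-Sketch procedure and the submitters' processing notes name Affymetrix Expression Console and RMA. Since the arrays share 1 distribution, a level is relative to the other genes of its array.

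Of 35556 probe sets, 21789 had 1 gene name in the platform annotation, which can be old, 1621 had several and 12146 had none. Only those with 1 name were used, and their mean was the level of a gene. Ratios were taken over all 19938 genes and called at 1.5-fold, the size used in the study. The detection P values of the study were not used here; the background mark was the Olfr 95th percentile. Only the calling step was checked on simulated data, with shifts well above 1.5-fold.

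Levels on every array were printed for Adgre1, Cd68 and Itgax, for Lyz1 and Lyz2, for the 3 members of each role with the largest ratio to WT-CT among those above background on at least 1 array and for members that went against the list past 1.5-fold. The ligands and partners named are the 3 of each with the largest ratio past 1.5-fold, and Gas6, Ccl3, Ccl8, Ccl9, Csf1 and Il34 were chosen after their values were seen. The mast cell genes were also described after their values were seen. The members and lists were chosen with earlier results of these data known. Alternatives were another call size, cyclic loess (limma 3.58.1, span 0.7, 3 iterations), filters on low levels, other scalings and the list without 10 genes that lymphocytes also express. Python 3.11.15, pandas 2.3.3 and R 4.3.3 were used. Protein sequences were not used here. With 1 array a group, the number of arrays limits the precision.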

Additional observations from a re-analysis of the deposited data

Results flagged for a closer look

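The genotype ratio of the list had opposite signs on the 2 diets. The median log2 ratio of the 40 measured members was -0.24 in cKO-HFD over WT-HFD and 0.40 in cKO-CT over WT-CT, and no array is shared between these comparisons. Adgre1 was called in both, with -0.60 in cKO-HFD over WT-HFD and 0.60 in cKO-CT over WT-CT, as was Lyz1, with -0.78 and 0.88. By qPCR and by staining, the paper described inflammation markers, that of Adgre1 among them, as similar between cKO-HFD and WT-HFD mice. Both Adgre1 calls lay just past the threshold, and that in cKO-CT over WT-CT was lost with cyclic loess (0.53). The cKO-HFD and WT-HFD arrays also differed strongly in skeletal muscle genes (median -4.06), whose part in the members' ratios was not tested. Each side rests on 1 array of combined RNA per group, so the difference between the diets was not tested.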

How the results depend on the processing

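With 1 array per group no replicate could be left out. No paired analysis was possible because each group is 1 array. No median of the members changed sign and no called ratio did. Each of the 200 ratios (40 members in 5 comparisons) moved by at most 0.1 on the log2 scale under cyclic loess. Taking the brightest probe set could change none, since each member has 1 probe set. Centring on the median of all genes shifts every ratio of a comparison by the same amount, at most 0.03, so it could not pass 0.1 either. In all, 9 ratios of at most 0.07 in size changed sign. Of these, 7 did so under cyclic loess (3 of Aif1 and 1 each of Mertk, Ncf1, Ncf4 and Ptprc) and 2 under centring (Irf8 and Tyrobp, in cKO-HFD over cKO-CT).

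Counts of members called moved more, since many ratios lie near 1.5-fold. For the other call sizes, scalings and filters on low levels the share of all genes called was not counted, so those counts of members stand without it. In cKO-CT over WT-CT, 6 of the 9 called members lay within 0.1 inside the threshold and 6 others within 0.1 outside it. At 2-fold, the count called lower in cKO-HFD over WT-HFD became 0, that called higher in cKO-CT over WT-CT 0, that called lower in cKO-HFD over cKO-CT 0, that called higher in WT-HFD over WT-CT 5 (Cd68, Itgax, Itgb2, Tyrobp and Lyz1) and that called higher in cKO-HFD over WT-CT 0. After cyclic loess, 5 members were called higher in cKO-CT over WT-CT (Itgax, Itgb2, Ccr2, Lyz1 and Laptm5), with Adgre1 at 0.53, Cd68 at 0.58, Tyrobp at 0.52, Cybb at 0.51 and Cd53 at 0.53 below the threshold, and Tyrobp at 0.58 in cKO-HFD over WT-CT, where 5 members were left. The 10 members set aside as also expressed by lymphocytes were Ptprc, Cd48, Cd52, Cd53, Cd84, Laptm5, Itgb2, Lcp1, Coro1a and Plek. Without them, 8 of 30 were called higher in WT-HFD over WT-CT, against 3.16% of all genes. In cKO-HFD over WT-CT it was 3 of 30 (Cd68, Itgax and Tyrobp), against 3.36%. Whether lymphocytes express any of the remaining 30 was not checked. With a filter at the Olfr background on 1 of the 2 arrays, 0 of 34 members were called lower in cKO-HFD over cKO-CT, since Ccr1 was left out.

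Of settings chosen after seeing the data, a filter at background on all 4 arrays also gave 0 of 30 there. At 1.4-fold, 8 members were called lower in cKO-HFD over WT-HFD, 15 higher in cKO-CT over WT-CT and 2 lower in cKO-HFD over cKO-CT. After subtracting the median ratio of the adipocyte list, 8 were called lower in cKO-HFD over WT-HFD (median -0.34) and 4 higher in cKO-CT over WT-CT (Cd68, Itgb2, Lyz1 and Laptm5). The pattern of 32 of 40 members across the diets became 33 after cyclic loess, against 25.7% of all genes. Without the 10 members set aside as also expressed by lymphocytes it was 23 of 30, against 22.9% of all genes. Levels near background limit Itgax, Fcgr1, Clec7a, Ccr2 and Ncf4.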
